A study of Schizosaccharomyces pombe with 6 samples.

Results

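The counts of 9 meiotic genes of fission yeast (Schizosaccharomyces pombe), all of which are thought to be kept low while cells divide by mitosis, were examined in cells without the Caprin protein Cpn1. The genes are mei4 (SPBC32H8.11), ssm4 (SPAC27D7.13c), rec8 (SPBC29A10.14), mcp7 (SPAC13A11.03), crs1 (SPBC2G2.09c), spo5 (SPBC29A10.02), mei2 (SPAC27D7.03c), mei3 (SPBC119.04) and SPCC1442.04c. They were chosen by systematic identifier and not by a rule on their counts, but with earlier results of these data known. They make up 9 of the 7268 features in the count table. The study asked whether Cpn1, which has been found with RNA processing factors that silence meiotic genes, affects the transcriptome. Polyadenylated RNA was sequenced from cpn1∆ cells and from wild-type (WT) cells, with 3 biological replicates of each, grown to log phase at 32 °C in rich medium. In the cpn1∆ strain, cpn1 was replaced by the HygMX6 cassette. Strains of both genotypes were h+ and carried ade6-210 and leu1-32 together with ura4-D18 and an ade6+ reporter at otr1R. All libraries of a genotype came from a single strain, so that any other difference between the strains cannot be told apart from the deletion.

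In vegetative cells the transcripts of many meiotic genes are made at a low level and then removed. The YTH-domain protein Mmi1 binds a region of the RNA, the determinant of selective removal, through repeated copies of the hexamer UNAAAC, and hands the transcript through the Red1 complex MTREC to the nuclear exosome. At some of these loci, among them mei4 and ssm4, small islands of H3K9 methylation form as well. When cells enter meiosis, the RNA-binding protein Mei2 and the non-coding meiRNA sequester Mmi1, and the transcripts accumulate.

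The hexamer was searched as TNAAAC, N being any base, on the sense strand of the annotated RefSeq transcripts of the ASM294v3 assembly, to see which of the 9 genes carry it. The median of 5106 protein-coding transcripts held 3 copies, or 1.64 per kb. The count was 15 in rec8, 14 in spo5, 13 in ssm4, 11 in mei4, 10 in mcp7 and 8 in crs1. These 6 transcripts held 4.96 to 8.03 copies per kb, and at most 1.88% of all protein-coding transcripts were as dense as the least dense of them, mei4. The other members were less dense, with 5 copies in mei3 (3.93 per kb), 4 in SPCC1442.04c (1.82 per kb) and 2 in mei2 (0.495 per kb), whose transcript was less dense than the median. A match is a stretch of letters and not a measured binding site.

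The stretch of 30 bases with the most copies is shown for the 6 dense transcripts and, for contrast, for SPCC1442.04c. Where several stretches held as many copies, as in SPCC1442.04c, the first from the 5′ end is shown, and its place need not be that of the others. Each is written 5′ to 3′ as DNA, with the hexamers in capitals.
rec8: tTAAAACcatggattgaaaagcTCAAACca
spo5: tacTCAAACTTAAACcaacaTAAAACctgt
ssm4: acagaagTTAAACattTGAAACtatgctta
mei4: tagtTTAAACtcaaatattgTTAAACcccc
mcp7: cttTTAAACtccatatttgtTCAAACtaat
crs1: tgcagaTGAAACttataTTAAACactcaaa
SPCC1442.04c: aaactctgtcaaTAAAACtgagactattag
The stretch of spo5 held 3 copies, those of the other 5 dense genes held 2 each and that of SPCC1442.04c held 1. In ASM294v3 they lie at chrII:2570135-2570164 on the plus strand (rec8), chrII:2538100-2538129 on the plus strand (spo5), chrI:4535247-4535276 on the minus strand (ssm4) and chrII:1473913-1473942 on the plus strand (mei4). The remaining stretches lie at chrI:578474-578503 on the plus strand (mcp7), chrII:3452378-3452407 on the minus strand (crs1) and chrIII:1775137-1775166 on the minus strand (SPCC1442.04c). In rec8, ssm4, mei4, crs1 and SPCC1442.04c the stretch was within the coding sequence, whereas in spo5 and mcp7 it was in an untranslated part of the transcript. The counts were made by the authors on another build, ASM294v2.

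**Figure D1:**
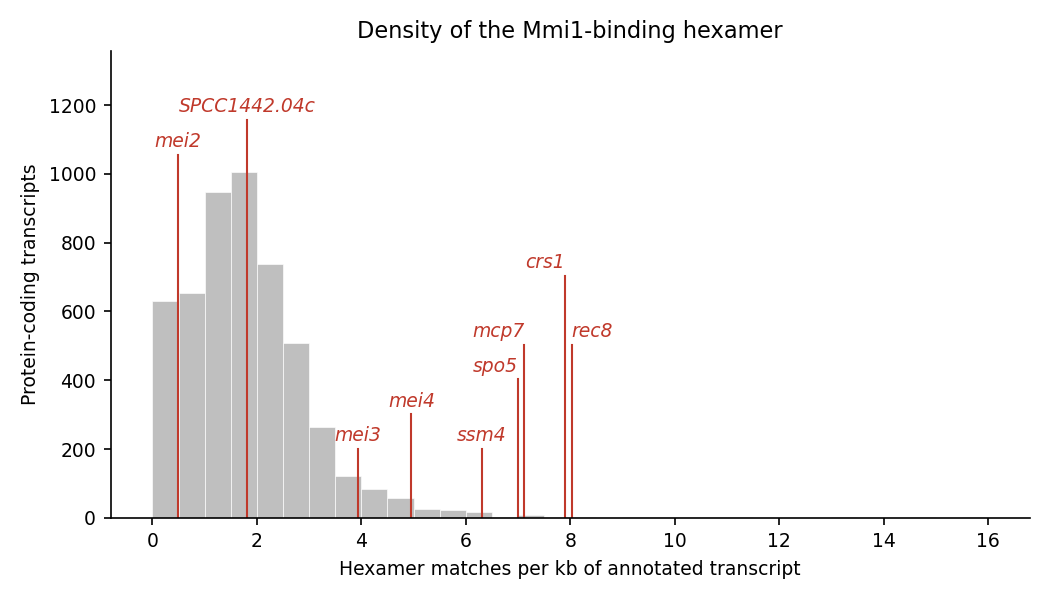
Number of protein-coding transcripts (vertical axis) by density of the hexamer in matches per kb of annotated transcript (horizontal axis), as grey bars, with a red line and a name at the density of each of the 9 genes. The lines of mei4, ssm4, spo5, mcp7, crs1 and rec8 stand in the right tail, from 4.96 to 8.03 per kb, while mei2 and SPCC1442.04c stand among most transcripts.

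The libraries held 28581994 to 32575216 counts in cpn1∆ cells and 26461217 to 32916622 in WT cells. The deleted gene cpn1 was at 5.88 ± 0.0667 CPM (counts scaled to a common library size) in cpn1∆ and 285 ± 1.74 CPM in WT cells (SD, n = 3), lower in every cpn1∆ library than in any WT library. The genotypes were compared with edgeR's quasi-likelihood test over 5812 features, with Benjamini-Hochberg adjustment over all of them, and a false discovery rate (FDR) under 0.05 was called a change. All CPM values are scaled by the trimmed mean of M-values (TMM). At this threshold 8.36% of the features tested rose and 10.2% fell, 18.6% in all. Those that also changed by over 2-fold, the threshold of the study, were 0.31% in either direction alone and 0.619% together.

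All 9 genes passed the low-count filter and were tested. Of these, mcp7 and crs1 rose, rec8 fell, and mei2, mei3, SPCC1442.04c, ssm4, mei4 and spo5 did not pass the test. By count, 2 of 9 rose beside 8.36% of all features, 1 of 9 fell beside 10.2%, and 3 of 9 changed beside 18.6%; no test of the 9 as a group was made. With the 2-fold threshold as well, 0 of the 9 passed in edgeR's test beside 0.619% of all features. The median log2 fold change (log2FC, cpn1∆ over WT) was 0.05 over the 9 genes and 0.01 over all features tested. Since the RNA came from whole cultures, a change in the number of cells that express a gene and a change in RNA per cell cannot be told apart.

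For a comparison between genes, levels were expressed as CPM per kb of annotated transcript. The full length was used, though 39.8% of mcp7 and 37.2% of crs1 overlap a gene on the other strand. Whether counts were lost in these parts was not tested, so the levels per kb of mcp7 and crs1, and their places among genes, are uncertain. SPCC1442.04c averaged 49.6 CPM per kb in cpn1∆ and 48.0 in WT cells, above the median of protein-coding genes in WT cells, 36.6 CPM per kb. Its WT level was higher than that of 58.7% of 5106 protein-coding genes, so that its polyadenylated RNA was not low among genes. Whether it is kept below its level in meiosis cannot be told, since no meiotic cells were sequenced. The next gene, mcp7, averaged 19.97 CPM per kb in cpn1∆ and 11.5 in WT cells, and its WT level was higher than that of 23.9% of genes. The other 7 averaged 0.619 to 4.58 CPM per kb in cpn1∆ and 0.562 to 4.78 in WT cells, where their levels were higher than those of only 8.91% to 16.4% of genes. In WT cells the order from high to low was SPCC1442.04c, mcp7, mei2, ssm4, mei4, rec8, spo5, crs1 and mei3, and the libraries of neighbours in this order overlapped only for spo5 and crs1. In cpn1∆ cells mei4 averaged 3.53 and ssm4 3.26 CPM per kb, with overlapping libraries, and crs1, at 1.66 CPM per kb, came above spo5, at 0.926. The libraries of rec8 and crs1 also overlapped there, at 1.64 to 1.90 and 1.36 to 1.83 CPM per kb.

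The genes that start meiosis came first in the comparison of genotypes. Mei2 is the RNA-binding protein needed for entry into meiosis. Its gene had 575, 576 and 562 counts in cpn1∆ replicates 1, 2 and 3, against 499, 640 and 596 in WT replicates 1, 2 and 3, or 18.5 ± 1.40 CPM in cpn1∆ and 19.3 ± 0.957 CPM in WT cells (SD, n = 3). The libraries overlapped, and the log2FC of -0.06 (standard error, SE, 0.07, 95% interval -0.22 to 0.10) did not pass the test (adjusted p = 0.600). Mei3 inhibits the kinase Pat1, which otherwise holds Mei2 inactive. The mei3 gene was the lowest of the 9, with 22, 26 and 25 counts in the cpn1∆ libraries and 25, 15 and 23 in the WT libraries. The libraries overlapped, and WT replicate 2 was the lowest. At this depth its log2FC of 0.16 (SE 0.29) left a wide interval of -0.46 to 0.79 and did not pass (adjusted p = 0.747), and its sign changed with the library left out (log2FC -0.06 to 0.39).

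Among genes of meiotic chromosome structure and recombination, changes went in opposite directions. Mcp7 is a coiled-coil protein of meiotic recombination, listed in RefSeq with the synonym mnd1. Its gene was at 27.7, 30.6 and 25.9 CPM in the cpn1∆ libraries (replicates 1, 2 and 3 in this order, here and for the other genes), against 15.6, 17.2 and 15.6 CPM in the WT libraries. Every cpn1∆ library was above every WT library, as for 2 of the 9 genes and 17.4% of all features tested. The opposite held for 1 of the 9 and 18.1% of all features, or 35.5% in either direction. The means were 28.1 ± 2.37 CPM in cpn1∆ and 16.1 ± 0.945 CPM in WT cells (SD, n = 3), which gave log2FC 0.80 (SE 0.08, interval 0.63 to 0.96, adjusted p = 7.53e-06), or 1.74-fold. Rec8 is the kleisin subunit of meiotic cohesin. The rec8 gene was at 3.55, 3.16 and 3.06 CPM in the cpn1∆ libraries, against 5.32, 4.53 and 4.70 CPM in the WT libraries. The groups did not overlap here either, and all cpn1∆ libraries were lower. The means were 3.26 ± 0.256 CPM in cpn1∆ and 4.85 ± 0.416 CPM in WT cells (SD, n = 3), which gave log2FC -0.57 (SE 0.14, interval -0.87 to -0.27, adjusted p = 0.0117). The transcripts of both genes are dense in the hexamer, with 7.12 copies per kb in mcp7 and 8.03 in rec8.

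SPCC1442.04c is annotated in RefSeq as rmr1, a meiotic recombination protein. The study examined it as a locus where H3K9 methylation forms when the exosome subunit Rrp6 is missing, and found this methylation to depend on Cpn1. The strains used here list no rrp6 deletion, and RNA was counted, not methylation. SPCC1442.04c was at 110, 113 and 105 CPM in the cpn1∆ libraries, against 110, 104.5 and 103 CPM in the WT libraries. The libraries overlapped, and the log2FC of 0.05 (SE 0.04, interval -0.03 to 0.13) did not pass the test (adjusted p = 0.376). With 2906 to 3539 counts per library, it had the most counts of the 9 genes and, with them, the narrowest interval.

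Ssm4 is the p150-Glued subunit of dynactin, which serves the movement of the nucleus in meiotic prophase. Its gene was at 6.71, 6.03 and 7.41 CPM in the cpn1∆ libraries, against 9.13, 8.49 and 7.31 CPM in the WT libraries. Of the cpn1∆ libraries only replicate 3 reached into the WT range, just above WT replicate 3. The log2FC was -0.30 (SE 0.12, interval -0.55 to -0.04) and did not pass after adjustment (unadjusted p = 0.0269, adjusted p = 0.104). Without WT replicate 3 the log2FC was -0.39 and passed (adjusted p = 0.0422). By RT-qPCR, the study reported no effect of Cpn1 loss on ssm4.

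Mei4 is the forkhead transcription factor that switches on the genes of the meiotic divisions. Its gene was at 7.131, 8.17 and 8.21 CPM in the cpn1∆ libraries, against 7.06, 7.78 and 6.81 CPM in the WT libraries. The libraries overlapped, and the log2FC of 0.12 (SE 0.11, interval -0.11 to 0.35) did not pass the test (adjusted p = 0.481). For mei4, too, the study reported no effect of Cpn1 loss by RT-qPCR. The gene next to mei4, downstream on the other strand, is act1, which encodes actin and served the study as the reference of its RT-qPCR. It was at 4301 ± 58.5 CPM in cpn1∆ and 4448 ± 95.4 CPM in WT cells (SD, n = 3), which gave log2FC -0.05 (SE 0.04, adjusted p = 0.453).

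Crs1 is a cyclin of meiosis. Its gene was at 1.81, 1.85 and 1.38 CPM in the cpn1∆ libraries, against 1.06, 0.861 and 0.784 CPM in the WT libraries, from 45 to 58 and from 25 to 28 counts. All cpn1∆ libraries were above all WT libraries. The means were 1.68 ± 0.262 CPM in cpn1∆ and 0.901 ± 0.141 CPM in WT cells (SD, n = 3), which gave log2FC 0.90 (SE 0.23, interval 0.40 to 1.41, adjusted p = 0.0159). The call rested on 4 of the 6 libraries: leaving out either WT replicate 2, WT replicate 3, or the first or second cpn1∆ replicate ended it (log2FC 0.81 to 0.88, adjusted p = 0.0553 to 0.0610), while it held without WT replicate 1 and without cpn1∆ replicate 3, where the log2FC was 1.020 and 1.03 and so past 2-fold. Spo5 is an RNA-binding protein of the second meiotic division and spore formation. Its gene was at 1.98, 1.40 and 2.18 CPM in the cpn1∆ libraries, against 1.77, 2.30 and 2.82 CPM in the WT libraries. The libraries overlapped widely, and the log2FC of -0.33 (SE 0.22, interval -0.80 to 0.15) did not pass the test (adjusted p = 0.341).

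**Figure D2:**
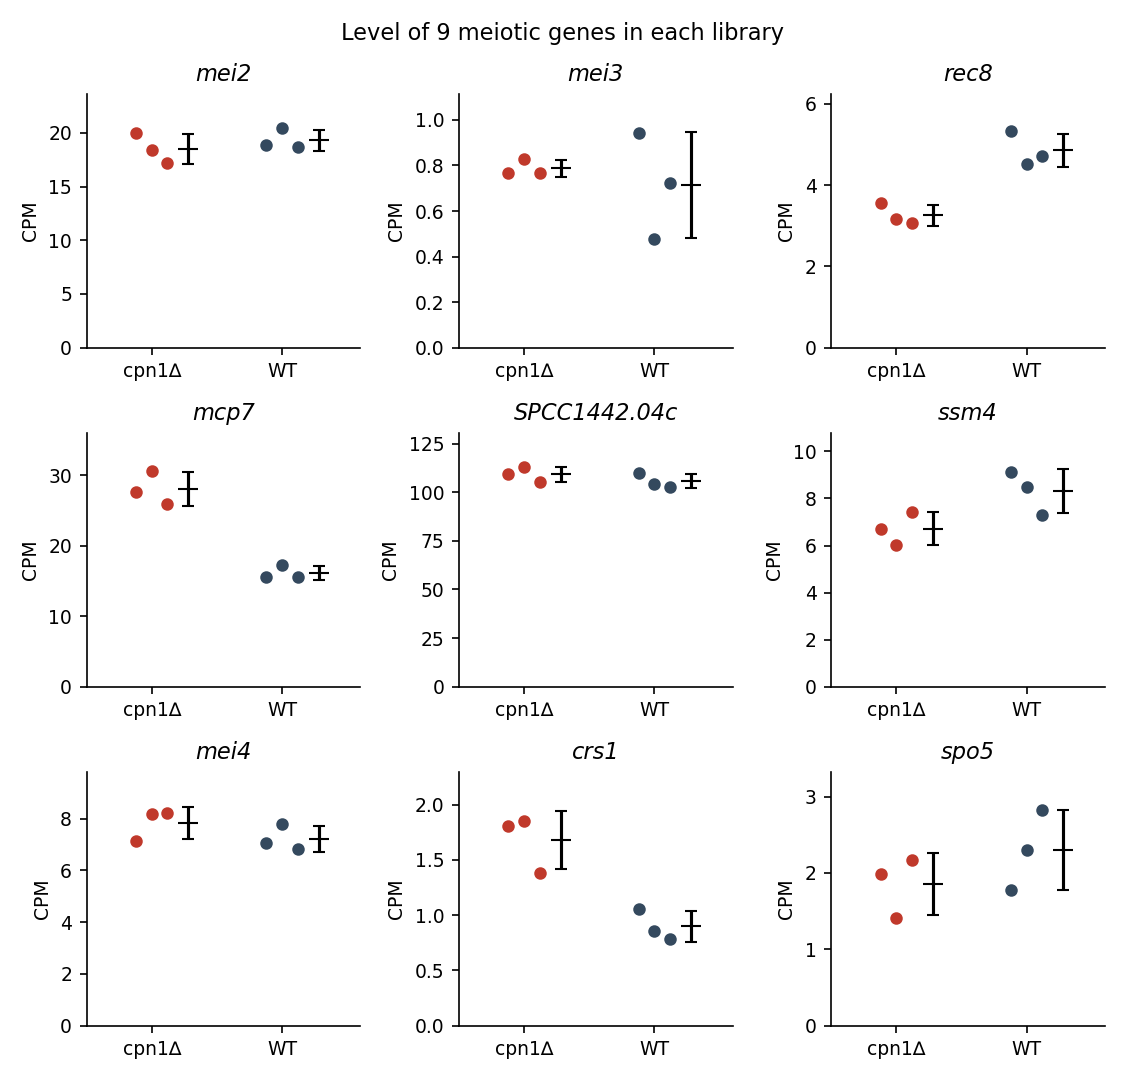
Level of each of the 9 genes in CPM (vertical axis, from 0, with its own scale per panel) in the 3 cpn1∆ libraries (red points, left) and the 3 WT libraries (dark points, right), with the mean and SD in black. The groups do not overlap for mcp7, crs1 and rec8, with rec8 lower in cpn1∆, and overlap for the other 6 genes.

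**Figure D3:**
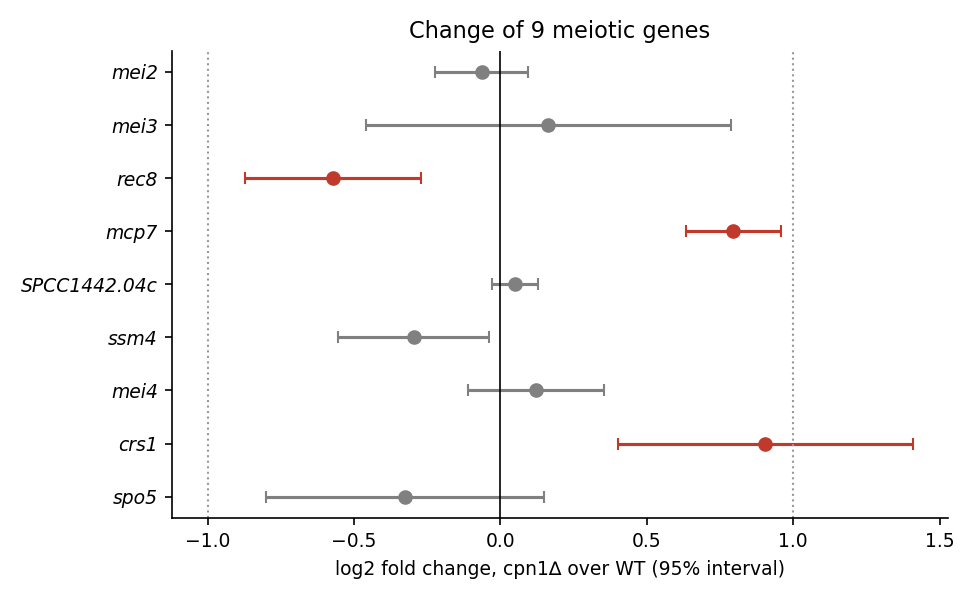
The log2FC of each gene, cpn1∆ over WT (horizontal axis), with its 95% interval, in red where the FDR was under 0.05 and in grey otherwise, and with dotted lines at a 2-fold change. The intervals of mcp7 (0.63 to 0.96) and crs1 (0.40 to 1.41) lie above 0 and that of rec8 (-0.87 to -0.27) below it.

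The genes that rose share sequence with a gene on the other strand. The 3′ part of mcp7 overlaps ubp8, which encodes a deubiquitinase of the SAGA complex, over 596 bases or 39.8% of mcp7, and crs1 overlaps ade9, an enzyme gene of one-carbon metabolism, over 444 bases or 37.2% of crs1. Among the other members the share was at most 6.76%, in SPCC1442.04c, and it was 0 in mei2, mei3, rec8, ssm4 and mei4. The strand setting of the counting is not given in the sources used here. Beside mcp7, ubp8 was at 44.4 ± 0.842 CPM in cpn1∆ and 41.1 ± 1.29 CPM in WT cells (SD, n = 3), which gave log2FC 0.11 (SE 0.04, adjusted p = 0.0952). Beside crs1, ade9 was at 407 ± 5.33 CPM in cpn1∆ and 427 ± 0.992 CPM in WT cells (SD, n = 3), which gave log2FC -0.07 (SE 0.03, adjusted p = 0.0758). Neither partner passed the test, and the part of the overlap in the changes of mcp7 and crs1 was not tested. None of the 9 genes carried fractional counts. The neighbours orc1, 107 bases downstream of rec8, and mug110, 229 bases upstream of crs1, had log2FC values of -0.03 and 0.03 (SE 0.06 and 0.08) and did not pass either. On its own strand, mei4 overlaps the kinase gene cdk9 over 115 bases, and cdk9 did not pass (log2FC -0.06, SE 0.03, adjusted p = 0.211). Beside members that did not pass, 2 neighbours did: tpr1, 238 bases upstream of ssm4, fell (log2FC -0.12, SE 0.03, adjusted p = 0.00639), and lsb1, 16 bases downstream of mei3 on the other strand, rose (log2FC 0.12, SE 0.04, adjusted p = 0.0458). The lsb1 call held only with all libraries or without WT replicate 3, among the fits with 1 library left out (adjusted p = 0.0544 to 0.195 for the others).

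Genes of the decision to enter meiosis, with mei2 and mei3 again among them, were compared in the same fit. Of 10 entry regulators, all tested, 0 rose and 1 fell at an FDR under 0.05, beside 8.36% and 10.2% of all features. Without mei2 and mei3, 8 were tested, of which 0 rose and 1 fell. The gene that fell, ste11, encodes the transcription factor that starts mating and meiosis, and it was at 16.3 ± 0.814 CPM in cpn1∆ and 20.5 ± 1.89 CPM in WT cells (SD, n = 3), which gave log2FC -0.32 (SE 0.08, adjusted p = 0.0119). This call was lost without WT replicate 2 (adjusted p = 0.0632), where 1 gene of the list rose and 0 fell. Without cpn1∆ replicate 1, and with the replicate number as a block, 2 fell. The kinase gene pat1 had log2FC 0.03 (SE 0.05, adjusted p = 0.766). The meiRNA gene sme2 was at 3.19 ± 0.235 CPM in cpn1∆ and 2.55 ± 0.132 CPM in WT cells (SD, n = 3), with no overlap between the libraries, but its log2FC of 0.32 (SE 0.16, adjusted p = 0.173) did not pass the test.

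Genes of the later steps of meiosis were counted by list, beside 8.36% of all features that rose and 10.2% that fell. The lists include members described above, among them ssm4, mei4 and spo5. Of 14 tested genes of recombination and the meiotic chromosome axis, mcp7 rose, rec8 fell and 12 did not pass, with a median log2FC of 0.07. Of 9 tested genes of nuclear movement and karyogamy, the dynein light chain gene dlc1 rose, with log2FC 0.12 (SE 0.03, adjusted p = 0.0153). The dlc1 call ended when WT replicate 2 was left out (adjusted p = 0.0702), and likewise for cpn1∆ replicate 3 (0.0596), while 1 gene of this list fell without WT replicate 3. Of 11 genes of meiotic transcription, cyclins and divisions, 6 were tested, of which crs1 rose and atf31 fell, while atf21, cuf2, mde3, mfr1 and rem1 had 0 counts in all libraries. With total counts only, and with the replicate block, 2 genes of this list rose. The transcription factor gene atf31 had log2FC -0.50 (SE 0.14, adjusted p = 0.0191), but it is wholly overlapped by features on the other strand and carries fractional counts, so that its value is uncertain, and its call ended when WT replicate 2 or either of cpn1∆ replicates 1 and 3 was left out (adjusted p = 0.0507 to 0.0980). Of 16 tested genes of spore formation, 2 rose (1 without WT replicate 1 or 2, or without cpn1∆ replicate 2 or 3) and 3 fell, or 5 of 16 beside 18.6% of all features. The spore wall gene isp3 was at 13.7 ± 0.953 CPM in cpn1∆ and 20.4 ± 1.29 CPM in WT cells (SD, n = 3), which gave log2FC -0.59 (SE 0.08, adjusted p = 0.000146), with 62.5% of its length overlapped on the other strand. The genes spo15, of the spindle pole body, and spo3, of the forespore membrane, had log2FC values of -0.19 and 0.25 (SE 0.03 and 0.05) and passed.

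Of 98 tested genes whose symbols start with mug, meu, mde or mcp, most of which were named for expression or up-regulation in meiosis, 8 rose and 5 fell, with a median log2FC of 0.03. Without cpn1∆ replicate 1 or 2, 5 rose. The background was 8.36% rising and 10.2% falling over all features. The largest rise among them was that of mcp7 and the next that of mug35, at log2FC 0.37 (SE 0.07). The largest fall was that of mug8, at log2FC -0.43 (SE 0.08). A further 25 genes of this kind had 0 counts in all libraries, and 21 of these are wholly overlapped by features on the other strand, as are 5 of the 6 recombination genes with 0 counts (dmc1, mde2, rec12, rec15, rec6 and rec7). Over the whole table, 270 of 379 protein-coding genes with such an overlap had 0 counts, against 23 of 2422 with none. The 0 counts of overlapped genes are therefore no measure of their expression.

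Of 14 tested genes of the removal machinery (Mmi1, MTREC and their partners), 1 rose and 7 fell, beside 8.36% and 10.2% of all features, with a median log2FC of -0.10, beside 0.01 over all features. The exosome genes dis3 and rrp6 had log2FC values of -0.25 and -0.25 (SE 0.03 for both), the cap-binding gene cbc1 of -0.24 (SE 0.03) and the poly(A)-binding gene pab2 of 0.11 (SE 0.03). The other falls were smaller, with log2FC values from -0.19 to -0.11, and no gene of this list changed by 2-fold. The 14 genes were at 39.3 (erh1) to 240 CPM (dis3) in WT cells, so that small changes could pass. The background share also covers features with few counts, such as mei3 at 0.714 CPM, and so is not a matched one. The mmi1 gene itself was at 126 ± 4.17 CPM in cpn1∆ and 122 ± 2.53 CPM in WT cells (SD, n = 3), which gave log2FC 0.05 (SE 0.03, adjusted p = 0.286). With scaling by total counts only, or without cpn1∆ replicate 2, 4 genes of this list fell, and the rise of pab2 was lost without WT replicate 3 and without cpn1∆ replicate 2 or 3.

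Genes listed as markers of cells that have left mitotic growth were counted in the same way. Of 9 tested genes on the mating and nitrogen starvation list, 2 rose and 1, ste11, already counted above, fell, or 3 of 9 beside 18.6% of all features. Summed over this list, the level was 423 to 429 CPM in cpn1∆ and 403 to 428 CPM in WT libraries. Both the count and the sum include mam2, a pheromone receptor gene of h- cells and so of the other mating type. It was at 42.8 CPM in cpn1∆ and 42.4 CPM in WT cells and did not pass (adjusted p = 0.866). The rises were in the starvation protease gene isp6 and in inv1, an invertase gene of sugar use. Their log2FC values were 0.14 and 0.25 (SE 0.04 and 0.08), and the libraries of the genotypes overlapped for both. The isp6 call was lost without WT replicate 1 or 2 and without cpn1∆ replicate 2 or 3 (adjusted p = 0.0917 to 0.153), and that of inv1 without WT replicate 1 or 2 and without cpn1∆ replicate 1 (0.111 to 0.184). Summed over the spore formation list, the level was 1376 to 1419 CPM in cpn1∆ and 1407 to 1432 CPM in WT libraries. The largest parts of this sum were spo20, spo15 and psy1, at 361, 291 and 233 CPM in WT cells. In the same cells isp3 was at 20.4 and spo5 at 2.30 CPM, so that the sum says little of such genes. The genes mam1, mfm1, mfm2 and mfm3, which make and export the pheromone of the other mating type, summed to 46.9 to 52.1 CPM in cpn1∆ and 45.6 to 47.3 CPM in WT libraries. Of these 4, mfm3 had 0 counts, and the 3 tested did not pass. Most of the sum was mam1, at 45.2 ± 2.17 CPM in cpn1∆ and 43.0 ± 0.561 CPM in WT cells (SD, n = 3). The list also held map3, the receptor gene for that pheromone, which belongs to h+ cells and so to the mating type of these strains. It fell, with log2FC -0.28 (SE 0.09, adjusted p = 0.0453), and is overlapped on the other strand over 99.8% of its length. Its call was lost without WT replicate 1 or 2, without cpn1∆ replicate 1 or 2 (adjusted p = 0.0585 to 0.163), and with scaling by upper quartile or total counts. The part of these genes in the changes of mcp7, crs1 and rec8 was not tested.

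**Figure D4:**
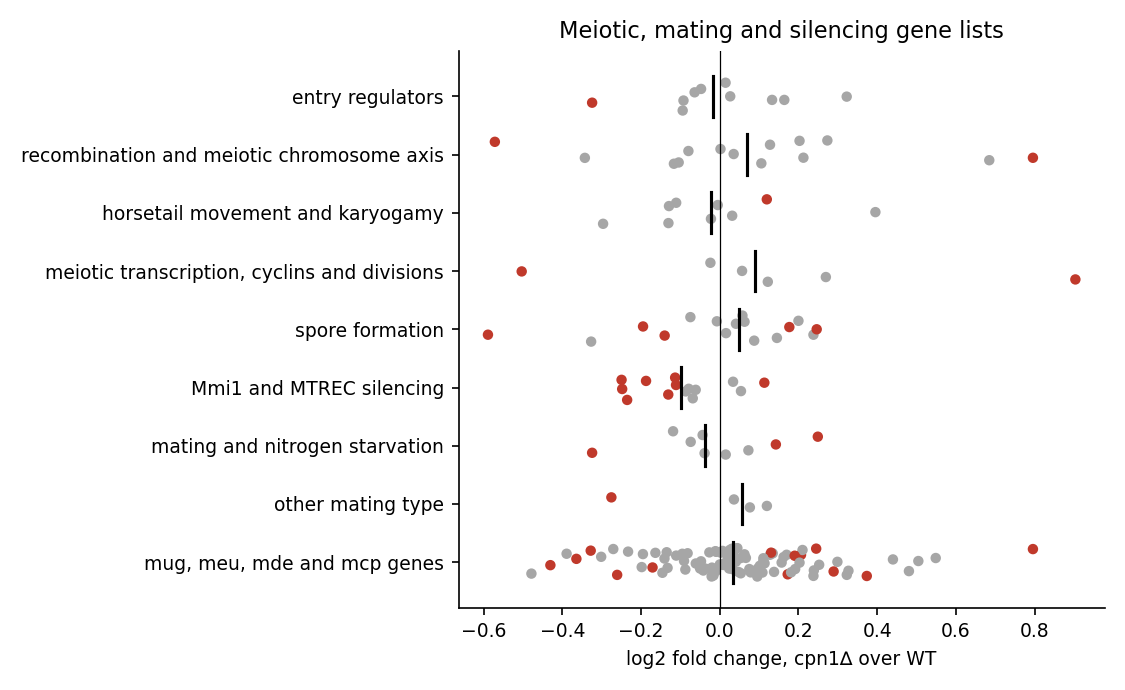
The log2FC, cpn1∆ over WT (horizontal axis), of every tested gene of 9 lists (rows), in red where the FDR was under 0.05 and in grey otherwise, with a black bar at the median of each list. The row named other mating type includes map3, a gene of h+ cells, and that of mating and nitrogen starvation includes mam2, a gene of h- cells. The medians lie between -0.10, for the Mmi1 and MTREC list, and 0.09, for meiotic transcription, cyclins and divisions, where crs1 stands farthest to the right at 0.90.

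The features most like mcp7 over the 6 libraries, by Pearson's r of log2 CPM, were yfh7 and pfl2 (0.995 for both) and atp14 (0.992). This describes 6 libraries of 2 genotypes and mostly repeats the difference between them: the log2FC was 0.19 for yfh7, 0.27 for pfl2 and 0.13 for atp14.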

How the data were processed

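RNA-seq libraries of 3 cpn1∆ and 3 WT cultures were compared. Per the labels and the methods of the study, cutadapt 4.8 trimmed the adapters, STAR 2.7.10b made the alignments on ASM294v2, and featureCounts counted. The authors deposited expected counts per feature, not normalized, with fractions of a count in 760 of 7268 features; these were rounded. The row other, 0.608% to 0.647% of each library, was left out. Libraries held 26461217 to 32916622 counts, and replicates differed by more than sampling noise (chi-square per feature 4.68 to 11.0). Identifiers were matched to RefSeq ASM294v3 (6846 matched).

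The model held genotype only. Features were kept by filterByExpr (minimum count 10), scaled by TMM and tested with edgeR 4.0.16 (quasi-likelihood, legacy FALSE) in R 4.3.3; the fit was tested on simulated data. Standard errors are the absolute log2FC over the square root of F. Alternatives were other scalings, filters and tests (DESeq2 1.42.0, limma 3.58.1 voom), a replicate block, unrounded counts, a 1.5-fold threshold and leaving out each library. The members and lists were chosen with earlier results of these data known. The genes named are the members, up to 3 called genes per list with the largest change, sme2, mmi1, pat1, ste11, cpn1, neighbours of members, and the 3 features most like the member with the smallest p. Of the lists, mei5, matPc, mat1-Pc and mat2-Pc were not matched. P-values measure the spread between these cultures of 1 strain each. The sum over genes of the other mating type was taken without map3, a gene of h+ cells, a correction made after the values were seen. The gene mam2, of h- cells, was left in the mating and nitrogen starvation list.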

Additional observations from a re-analysis of the deposited data

How the results depend on the processing

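Of the 9 genes, 2 rose and 1 fell under all other scalings, filters, tests and the unrounded counts, with mcp7 past the threshold in 18 of 18 alternatives (log2FC 0.73 to 0.85) and rec8 in 18 of 18 (-0.63 to -0.51). With 1 library left out, 1 to 2 rose and 1 to 2 fell, and 0 to 1 passed the 2-fold threshold as well (crs1, without WT replicate 1 or cpn1∆ replicate 3). With a 1.5-fold threshold 0 fell, since rec8 was just under it. Over all features, 309 to 438 rose and 436 to 581 fell with 1 library left out, against 486 and 595 with all, the fewest rises without WT replicate 2. Scaling by total counts only gave 636 rises and 399 falls, so that 61.4% of the calls were rises, against 45.0%. The mei3 gene was not tested with at least 1 CPM in 3 libraries. The replicate numbers did not pair the libraries (r of same-numbered deviations -0.06, 0.05 and 0.09). With the replicate number as a block, 2 members rose, 1 fell and 0 passed the 2-fold threshold, and 556 features rose and 671 fell. Depth limits mei3, crs1 and spo5, with 15 to 90 counts per library.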

Other observations

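Transcripts as dense in the hexamer as mei4 or denser, but not among the 9 genes, numbered 90, of which 70 were tested. Of these 70, 3 rose and 3 fell at an FDR under 0.05, or 4.29% each, against 9.12% and 11.9% of all 4714 protein-coding transcripts tested, with a median log2FC of 0.02, against 0.002. This set was defined from the density of the members and was given no test. The falls were in mug8, at 12.2 ± 0.700 CPM in cpn1∆ and 16.4 ± 0.652 CPM in WT cells (SD, n = 3), and in SPAC212.12 and SPAC750.07c, with log2FC values of -1.59 and -1.79. The last 2 have the same annotated length, 372 bases, with 2 copies each, and whether they share reads was not tested. The study lists both as subtelomeric, and nearly all transcripts that it called down-regulated came from such loci. The part of the location or of the hexamer in these 2 falls was not tested. The rises were in arc4 (log2FC 0.14), which encodes a subunit of the actin-nucleating Arp2/3 complex, and in the ATP synthase subunit genes atp7 (0.14) and atp17 (0.10).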
